A study of Mus musculus with 16 samples.

Results

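The 10 genes described here were Rhoa, Rhob and Rhoc, the kinases Rock1 and Rock2, the myosin genes Myl9 and Myh9, the myosin kinase and phosphatase genes Mylk and Ppp1r12a, and Smurf1. They were chosen by name, with no measured value in the rule, though earlier results of these data were known. They came out of 54193 genes summed in each library, and all 10 were among the 14838 genes with enough counts to be tested. RNA-seq was performed on 16 samples of cultured mouse brain microvascular endothelial cells (mBMEC). The cells came from mice of 8 to 10 weeks carrying a floxed Ccm3 (Pdcd10) allele and Cdh5(PAC)-CreERT2. This is a Cre that the endothelial Cdh5 promoter drives and tamoxifen switches on. The 3 WT and 3 KO samples had no drug. WT+P (n = 2) and KO+P (n = 3) cells had 10 µM propranolol, a beta blocker, for 24 h, and WT+R (n = 2) and KO+R (n = 3) cells had 100 nM rapamycin, an mTOR inhibitor, for 24 h. All 6 groups carried the same alleles, had been selected with puromycin and were used at passage 2. Only the KO cells had been given 4-hydroxytamoxifen (4-OHT), so that effects of the compound and of losing Ccm3 cannot be told apart. Each culture came from the brains of several mice.

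RhoA is a small GTPase that, when loaded with GTP, switches on the ROCK kinases. ROCK phosphorylates the regulatory light chain of non-muscle myosin II and inhibits the phosphatase that would remove that phosphate, so that myosin pulls on actin stress fibres. In endothelium this tension acts on cell junctions, and the products of the CCM genes are known to restrain RhoA, in part through the ubiquitin ligase Smurf1, which marks RhoA for degradation. The data are mRNA levels, and none of the phosphorylation or GTP loading steps was measured.

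Each library held between 18.83 and 26.2 M counts. Pdcd10, the floxed gene, was at 11.5, 31.2 and 47 CPM (counts scaled to library depth) in the WT libraries, at 27.7 to 60.8 CPM in the drug-treated WT libraries, and at 7.83 to 16.7 CPM in the 9 libraries of KO cells. Its log2 fold change in KO vs WT was -1.56 ± 0.4 (adjusted p = 0.42, blocked 0.119, and called by DESeq2 at adjusted p = 0.0244). The library labelled WT replicate 1 was thus at the level of the KO libraries, and blocked values without it are given for each comparison with the WT group. The 12 endothelial markers, among them Pecam1, Cdh5 and Cldn5, were all tested and summed to 9160 to 12500 TPM (counts scaled to transcript length and to depth) in WT, 6370 to 8760 in WT+P, 7460 to 8180 in WT+R, 9540 to 10900 in KO, 6510 to 9740 in KO+P and 7810 to 9390 in KO+R libraries. In these sums the drug-treated WT libraries thus lay below the WT libraries, and the KO+R below the KO libraries, while KO+P and KO libraries overlapped. The median log2 fold change over the 12 markers (edgeR, unblocked) was -0.61 in WT+P and -0.35 in WT+R vs WT, and -0.41 in KO+P vs KO. In KO+R vs KO it was -0.03, so the lower KO+R sum was not shared by the markers in general. The part of these differences in the results below was not tested. Astrocyte and microglia markers summed to at most 4.95 and 1.43 TPM. Nothing in the labels says that the replicate numbers pair the cultures, but libraries with the same number deviated together in every comparison (correlations of 0.19 or more), so the value from a model with the number as a block, called the blocked model here, is printed where it changes a call. Libraries with different numbers reached a correlation of 0.4, so the ranges overlapped. Calls required both a fold change above 1.5 and an adjusted p (Benjamini-Hochberg) under 0.05 in edgeR's quasi-likelihood test, and every adjusted p below is of that test unless DESeq2 is named. On simulated counts DESeq2 called more unchanged genes than edgeR did (43 against 6, both without the block). Those counts were drawn from edgeR's own fit, with no effect of the replicate number. They therefore cannot rank DESeq2 and edgeR, or judge the block, on the real libraries.

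On GRCm39, Rhoa spans chr9:108182242-108215142 (plus strand), Rhob chr12:8547661-8550009 (minus), Rhoc chr3:104695691-104701779 (plus), Rock2 chr12:16944797-17037834 (plus), Myl9 chr2:156617084-156623579 (plus), Myh9 chr15:77644785-77726381 (minus), Mylk chr16:34565580-34822790 (plus), Ppp1r12a chr10:107997640-108120336 (plus) and Smurf1 chr5:144813300-144902866 (minus). Levels between genes were compared per length, in TPM. Rhoc, the RhoA relative whose mRNA was the most abundant of the 10, averaged 1930 TPM over the 16 libraries (range 1576 to 2345) and lay above the next gene in all 16. Rhob averaged 597 TPM (251 to 1315), Rhoa 502 TPM (389 to 596) and Myh9, the heavy chain of non-muscle myosin IIA, 450 TPM (226 to 910). These 3 neighbours changed places between libraries, with Rhob above Rhoa in 9 of 16 and Rhoa above Myh9 in 10 of 16. Myl9, a regulatory light chain best known from smooth muscle, had the widest range as a ratio of highest to lowest, from 9.59 to 322 TPM around a mean of 79.8 TPM, and lay above Rock2 in 6 of 16 libraries only. Rock2 averaged 63.2 TPM and Smurf1 59.0 TPM, with Rock2 above in 9 of 16. Ppp1r12a, the targeting subunit of myosin phosphatase, averaged 27.3 TPM, Rock1 19 TPM and Mylk, the calcium-dependent myosin light chain kinase, 6.55 TPM, each above the next in all 16 libraries.

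**Figure D1:**
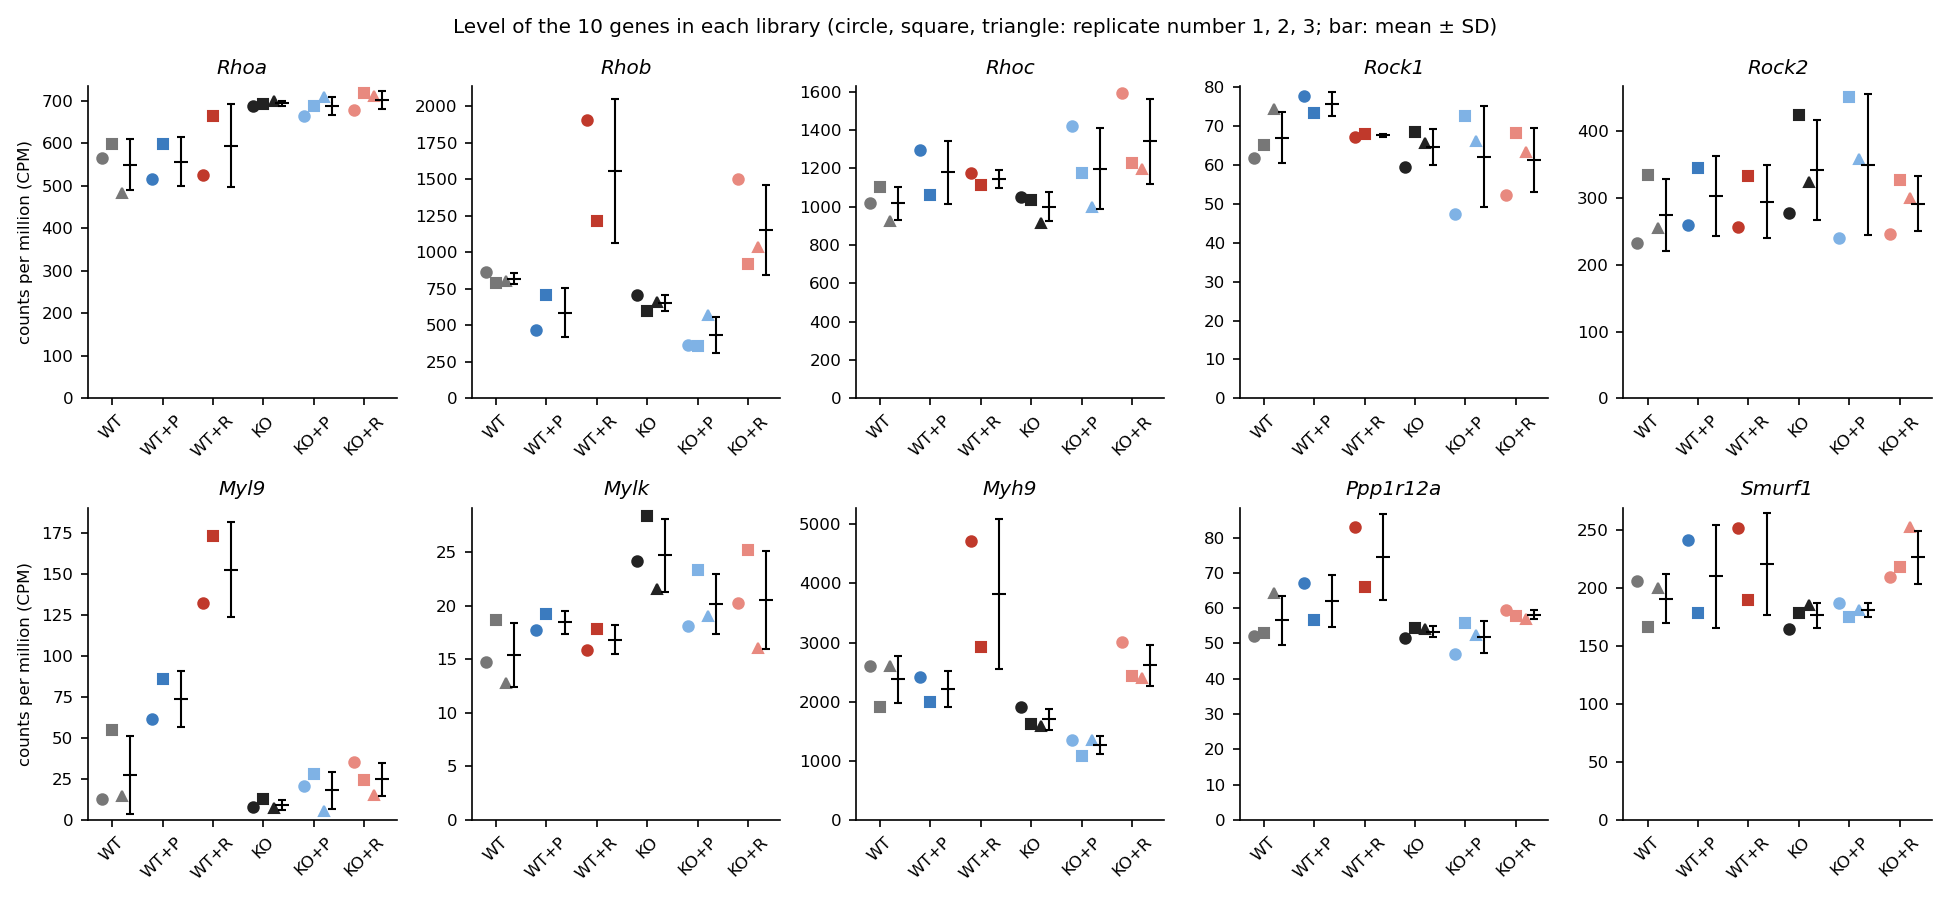
Level of each of the 10 genes in CPM (vertical axis, from 0) in the 16 libraries, by group, with circles, squares and triangles for replicate numbers 1, 2 and 3 and the bar for the mean ± SD of the group. Rhob and Myh9 are highest in the rapamycin groups, Myl9 reaches 173 CPM in WT+R cells and stays at or under 35.1 CPM in all KO groups, and Rock1 stays between 47.5 and 77.8 CPM.

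Most counts of a gene fell on a single transcript. Rhob-201 and Myh9-201 held 100.0% of the counts of their genes on average, Myl9-201 99.1%, Rock1-201 97.7% and Mylk-201, the transcript of 7824 bases in 32 exons, 89.7% (range 82.7 to 95.7%). For the 4 genes that the comparisons turn on, the 250 bases before the start of that transcript in the GENCODE annotation of GRCm39 are shown. They run 5′ to 3′ on the strand of the gene. The window of Mylk lies inside the gene, which starts at base 34565580, so it need not be the promoter in use. Rhob (chr12:8550010-8550259, minus strand) and Myh9 (chr15:77726382-77726631, minus strand) are shown because their levels moved most alike among the 10 genes, Myl9 (chr2:156616834-156617083, plus strand) because it varied most, and Mylk (chr16:34605041-34605290, plus strand) because it was the gene called between KO and WT. Capitals mark matches, on either strand, to CCAAT (read by NF-Y), to the TATA-like TATAAA, to the TEAD factor site GGAATG, to the Sp1 site GGGCGG or to a CArG box (read by SRF).
Rhob: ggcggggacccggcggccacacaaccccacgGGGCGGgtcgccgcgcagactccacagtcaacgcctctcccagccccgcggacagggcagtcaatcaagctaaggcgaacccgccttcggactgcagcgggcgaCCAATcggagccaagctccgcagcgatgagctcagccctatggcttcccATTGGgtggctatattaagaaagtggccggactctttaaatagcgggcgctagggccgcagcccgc
Myh9: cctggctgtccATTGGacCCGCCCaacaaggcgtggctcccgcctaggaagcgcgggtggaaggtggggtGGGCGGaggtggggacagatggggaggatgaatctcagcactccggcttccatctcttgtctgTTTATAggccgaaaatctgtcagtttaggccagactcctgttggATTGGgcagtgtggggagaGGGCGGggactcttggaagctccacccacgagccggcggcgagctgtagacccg
Myl9: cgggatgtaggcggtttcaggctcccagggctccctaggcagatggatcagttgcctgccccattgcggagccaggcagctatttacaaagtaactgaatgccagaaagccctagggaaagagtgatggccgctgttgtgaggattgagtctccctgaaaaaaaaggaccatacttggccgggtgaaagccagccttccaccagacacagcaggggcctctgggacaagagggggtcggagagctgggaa
Mylk: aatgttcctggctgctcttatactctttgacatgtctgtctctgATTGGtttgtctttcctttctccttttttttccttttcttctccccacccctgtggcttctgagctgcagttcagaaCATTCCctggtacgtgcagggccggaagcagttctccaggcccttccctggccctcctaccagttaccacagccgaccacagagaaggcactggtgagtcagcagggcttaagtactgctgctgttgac
The 2 windows of Rhob and Myh9 each held 2 matches to CCAAT, which 35.2% of the 14837 windows of tested genes held at least once. Myh9 also held 1 match to TATAAA (8.02% of windows) and 3 to GGGCGG (45.8%), against 1 to GGGCGG in Rhob. Mylk held 1 CCAAT and 1 GGAATG (11.4%). The Myl9 window held none of the motifs. No window of the 10 genes held a CArG box, which 1.2% of windows did, and this says only that these letters are not in these windows. The windows of Rhoa (chr9:108183078-108183327) and Ppp1r12a (chr10:108085205-108085454) also lay wholly inside the gene.

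The first comparison asked what loss of Ccm3 changed in undrugged cells. Mylk averaged 24.7 CPM ± 3.43 (SD, n = 3) in KO and 15.4 ± 2.99 (n = 3) in WT cells, and Rhoa 693 ± 6.03 in KO and 549 ± 59.5 in WT cells. Myh9 and Rhob lay the other way, at 1701 ± 178 and 654 ± 55.3 CPM in KO against 2375 ± 401 and 820 ± 40.0 CPM in WT cells. For these 4 of 10 genes the KO and WT libraries did not overlap, which held for 13.2% of all tested genes. None of the 10 was called in the model without the block (0.00674% of tested genes were called, and 4 members had an unadjusted p under 0.05, against 6.07% of all tested genes), nor by DESeq2 without a block (0.438% called). In the blocked model Mylk was called higher in KO cells, and 0.182% of tested genes were called.

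The 3 WT libraries held 14.8, 18.7 and 12.8 CPM of Mylk and the 3 KO libraries 24.2, 28.4 and 21.6 CPM. All KO libraries were above all WT libraries in CPM, and the difference within each replicate number was 0.72, 0.6 and 0.75 on the log2 scale. In TPM, which also scales to transcript length, the groups overlapped, at 7.64 in WT replicate 2 and 6.78 in KO replicate 1. The log2 fold change was 0.68 ± 0.19 (SE, adjusted p = 0.483) without the block and 0.69 ± 0.1 (adjusted p = 0.0314) with it. Leaving out the library labelled WT replicate 1 gave 0.67 (blocked, adjusted p = 0.048). The call was lost without any 1 of the other 5 libraries, with adjusted p of 0.0575 and 0.131 without WT replicates 2 and 3 and of 0.12, 0.154 and 0.286 without KO replicates 1, 2 and 3, while the log2 fold change stayed between 0.66 and 0.73.

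Rhoa was at 565, 599 and 483 CPM in WT and at 688, 692 and 700 CPM in KO libraries. The KO values lay close together above the WT range, and the log2 fold change of 0.34 ± 0.12 (adjusted p = 0.615, blocked 0.166) was under the 1.5-fold threshold. Of the stretches of 31 bases in Rhoa-201, 41.8% also occur in other genes, above all in Gm70488 and Gm12844, listed at or near 0 TPM, and in Gm37401, which overlaps Rhoa on the opposite strand in a library without strand information. Gm37401 took 0.0 to 1.9% of the counts of both, and their sum was 485 to 602 CPM in WT and 692 to 702 CPM in KO libraries. Per length, Gm37401 averaged 89.0 TPM against 502 TPM for Rhoa. Its part in the TPM order of Rhoa among the 10 genes was not tested.

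Myh9 held 2602, 1912 and 2610 CPM in WT and 1907, 1613 and 1585 CPM in KO libraries. All KO libraries lay below all WT libraries, WT replicate 2 and KO replicate 1 nearly touching. Its log2 fold change was -0.48 ± 0.2 (adjusted p = 0.741, blocked 0.121). Myl9, the other myosin gene, was at 12.7, 54.6 and 14.7 CPM in WT and 7.59, 12.8 and 7.06 CPM in KO libraries. One WT library, replicate 2, stood far above the rest and the groups overlapped, with a log2 fold change of -1.58 ± 0.61 (adjusted p = 0.685, blocked 0.146). It was -0.93 without WT replicate 2 and -1.82 without WT replicate 1 in the blocked model (adjusted p = 0.341 and 0.0549). In such bulk samples fewer cells of a type and less RNA per cell cannot be told apart, which matters for Myl9 because mural cells of the vessel wall also express it.

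Rhob, an early-response gene, was at 865, 790 and 803 CPM in WT and at 706, 596 and 660 CPM in KO libraries (log2 fold change -0.33 ± 0.24, adjusted p = 0.996). Rhoc, Rock1, Ppp1r12a and Smurf1 had overlapping groups and log2 fold changes between -0.11 and -0.02, with SE of 0.12 to 0.16. Rock2, whose 3 WT libraries held 232, 335 and 255 CPM and whose KO libraries held 277, 424 and 324 CPM, had a log2 fold change of 0.32 ± 0.24 without and 0.31 ± 0.11 with the block (adjusted p = 0.996 and 0.24). In Rock2 the highest library of each undrugged group was replicate 2. Smurf1, the ligase that marks RhoA, held 167 to 206 CPM in WT and 165 to 186 CPM in KO libraries. Without the library labelled WT replicate 1 the blocked log2 fold changes were 0.39 for Rhoa (adjusted p = 0.149), -0.51 for Myh9 (0.149) and -0.33 for Rhob (0.631), those of Rhoc, Rock1, Rock2, Ppp1r12a and Smurf1 lay between -0.16 and 0.33, and Mylk was the 1 of 10 genes called, with 0.445% of tested genes called.

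**Figure D2:**
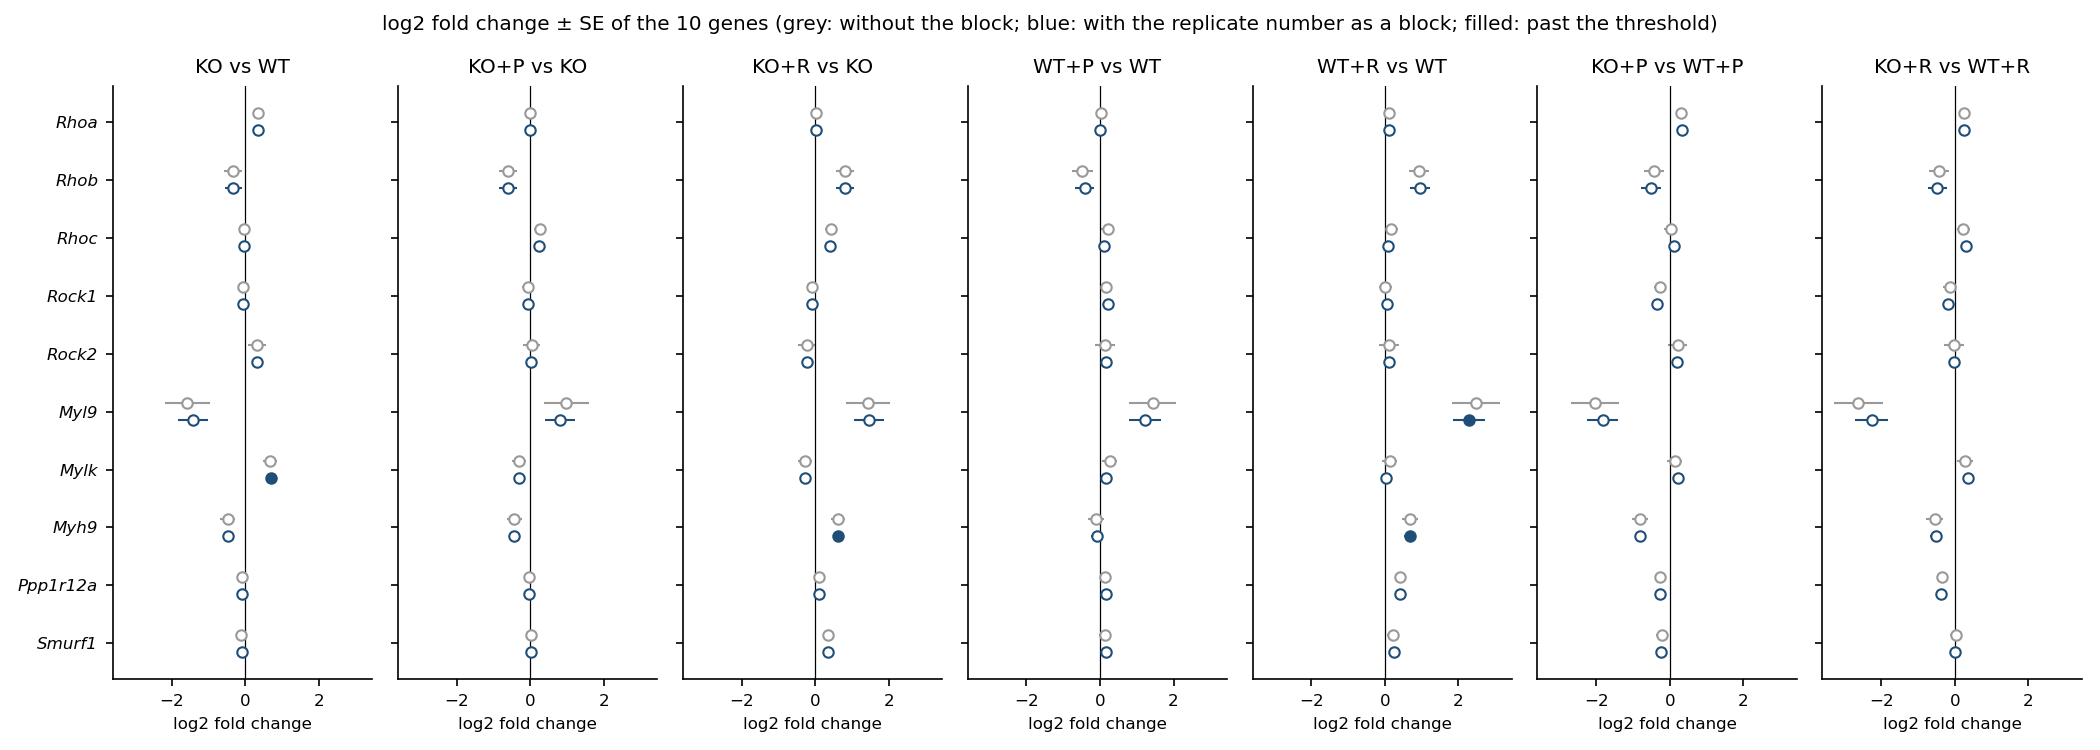
log2 fold change ± SE (horizontal axis) of the 10 genes in the 7 pairwise comparisons, from edgeR without (grey) and with (blue) the replicate number as a block, and filled where a gene was called. The blocked model fills 4 points, Mylk in KO vs WT, Myh9 in both rapamycin comparisons and Myl9 in WT+R vs WT, and the unblocked model fills none.

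With rapamycin the myosin genes and Rhob lay higher in both genotypes. Myh9 averaged 2614 CPM ± 346 in KO+R against 1701 ± 178 in KO cells, and 3818 ± 1270 in WT+R against 2375 ± 401 in WT cells. Rhob averaged 1153 ± 306 against 654 ± 55.3 CPM and 1558 ± 492 against 820 ± 40.0 CPM, and Myl9 24.8 ± 10.1 against 9.15 ± 3.17 CPM and 153 ± 29.1 against 27.3 ± 23.6 CPM, in KO and WT cells. In KO cells 6 of the 10 genes, and in WT cells 5, had all rapamycin libraries above all undrugged libraries, against 10.9% and 14.0% of all tested genes, and none had them all below. Without the block none of the 10 was called in either comparison (1.51% and 1.4% of tested genes were called; 5 and 4 members had an unadjusted p under 0.05, against 12.5% and 12.6% of all tested genes). In the blocked model Myh9 was called higher in both (4.98% and 4.56% of tested genes called), and Myl9 was called higher in WT cells.

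The KO+R libraries held 3012, 2435 and 2394 CPM of Myh9, against 1907, 1613 and 1585 CPM in KO cells, and the difference within each number was 0.66, 0.59 and 0.6 on the log2 scale. All KO+R libraries lay above all KO libraries, by nearly the same ratio for each replicate number. The log2 fold change was 0.62 ± 0.2 without the block (adjusted p = 0.186) and 0.62 ± 0.13 with it (adjusted p = 0.0152). The blocked call held without KO replicate 2 or KO+R replicate 3, and was lost without KO replicate 1 (adjusted p = 0.0797), KO replicate 3 (0.0825), KO+R replicate 1 (0.0571) or KO+R replicate 2 (0.0686). In WT cells the WT+R libraries held 4714 and 2922 CPM and the WT libraries 2602, 1912 and 2610 CPM, again without overlap (0.67 ± 0.14, blocked adjusted p = 0.0208, unblocked 0.17). This call was lost without the library labelled WT replicate 1 (adjusted p = 0.084), WT replicate 2 (0.0879) or WT+R replicate 1 (0.296), and held without the other 2 libraries.

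Myl9 was at 132 and 173 CPM in WT+R and at 12.7, 54.6 and 14.7 CPM in WT libraries. Both WT+R libraries lay well above the highest WT library, and the log2 fold change was 2.48 ± 0.66 without the block (adjusted p = 0.0849) and 2.29 ± 0.44 with it (adjusted p = 0.012), a 4.89-fold difference. Without the library labelled WT replicate 1 it was 1.84 (blocked, adjusted p = 0.034). The blocked call also held without WT replicate 2 or 3, and was lost without WT+R replicate 1 (0.118) or WT+R replicate 2 (0.0546). In KO cells the KO+R libraries held 35.1, 24.4 and 14.9 CPM against 7.59, 12.8 and 7.06 CPM in KO libraries. These groups did not overlap either, and the log2 fold change of 1.44 ± 0.61 (adjusted p = 0.343) became 1.46 ± 0.41 with the block (adjusted p = 0.0558), which passed only without KO+R replicate 2 (adjusted p = 0.0408).

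Rhob held 1501, 922 and 1037 CPM in KO+R and 1906 and 1210 CPM in WT+R libraries. Each was above every library of any other group, the highest of which held 865 CPM. The log2 fold changes of 0.82 ± 0.25 in KO and 0.93 ± 0.27 in WT cells stayed short of the threshold without the block (adjusted p = 0.148 and 0.121) and with it (0.0624 and 0.0615), while DESeq2 without a block called Rhob in both (adjusted p = 0.0255 and 0.0244; 3.17% and 3.65% of tested genes called). DESeq2 called Myh9 in both comparisons as well (adjusted p = 0.0323 and 0.041), and Myl9 in WT cells (0.00463).

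Rhoc, at 1595, 1229 and 1196 CPM in KO+R libraries against 1052, 1033 and 916 CPM in KO libraries, had a blocked adjusted p of 0.0459 in KO cells but a log2 fold change of 0.41 ± 0.11, under the 1.5-fold threshold that the call also asks for. Smurf1 was at 210, 218 and 253 CPM in KO+R against 165, 179 and 186 CPM in KO libraries (0.36 ± 0.14, adjusted p = 0.293, blocked 0.0918). The Smurf1 libraries did not overlap in KO cells but did in WT cells. A transcript of Smurf1 with a retained intron, Smurf1-204, held 5.2% of the counts of the gene on average. Ppp1r12a had a log2 fold change of 0.12 ± 0.12 in KO and 0.4 ± 0.13 in WT cells (adjusted p = 0.768 and 0.176). Rhoa, Rock1, Rock2 and Mylk had log2 fold changes between -0.27 and 0.02 in KO cells and between 0.01 and 0.13 in WT cells, all with adjusted p of 0.636 or more. Without the library labelled WT replicate 1 the blocked log2 fold change in WT cells was 0.95 for Rhob (adjusted p = 0.155) and 0.34 for Ppp1r12a (0.276), and those of Rhoa, Rhoc, Rock1, Rock2, Mylk and Smurf1 lay between -0.01 and 0.29. In that fit 1 of the 10 genes, Myl9, was called, and 2.73% of tested genes were. Interaction tests asked whether rapamycin acted differently in KO and WT cells, and gave no adjusted p under 1 for any of the 10 genes (0% of tested genes were called, 0.762% at an unadjusted p under 0.05). The difference between the rapamycin effects, KO minus WT, was -1.05 ± 0.89 for Myl9, -0.11 ± 0.37 for Rhob and -0.07 ± 0.3 for Myh9 on the log2 scale, so that its error for Myl9 was nearly as large as itself. Without the library labelled WT replicate 1 it was -0.69 for Myl9, and -0.4 in the blocked model (adjusted p = 1 in both).

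**Figure D3:**
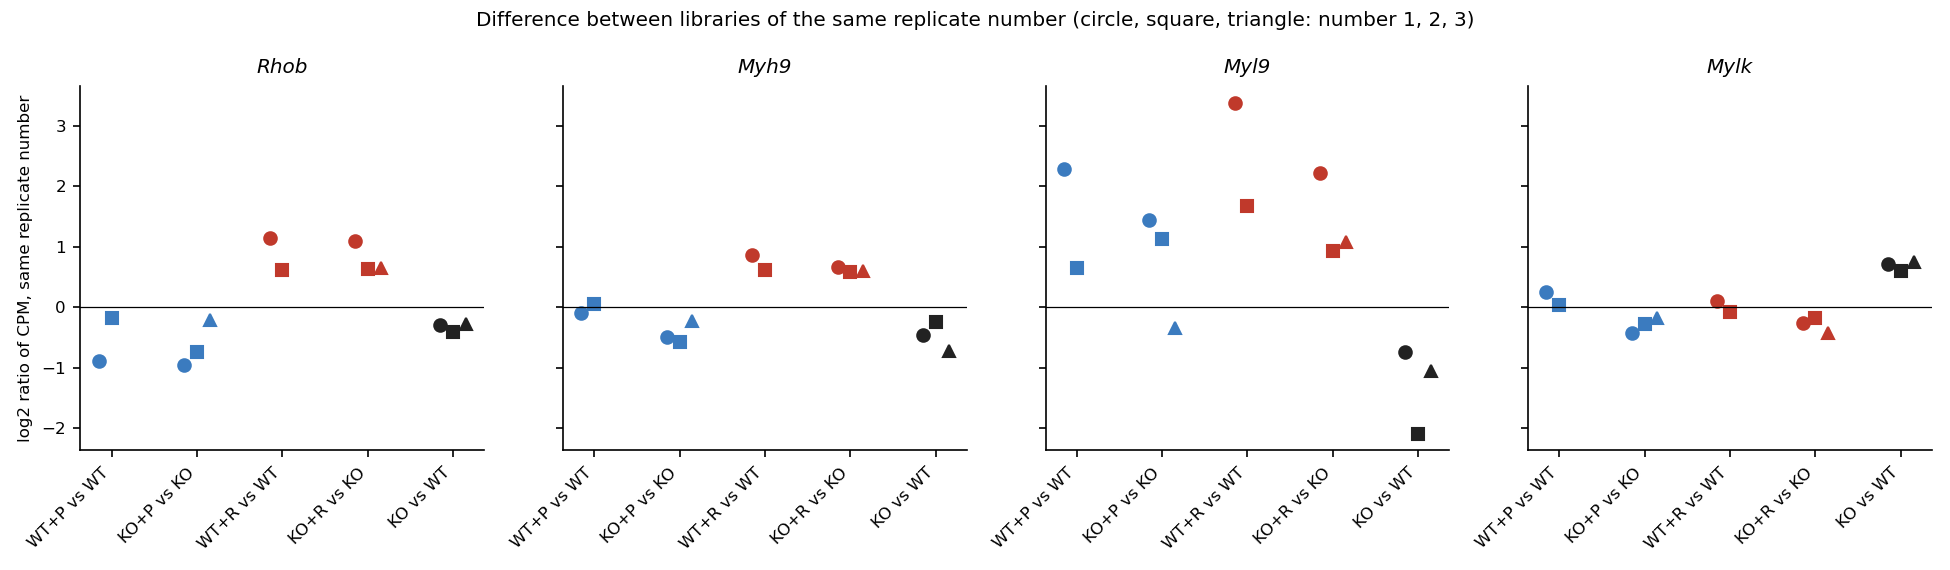
log2 ratio of CPM (vertical axis) between libraries of the same replicate number for Rhob, Myh9, Myl9 and Mylk in 5 comparisons, with circles, squares and triangles for numbers 1, 2 and 3. All 5 rapamycin ratios of Rhob, Myh9 and Myl9 are above 0, the Mylk ratios in KO vs WT lie between 0.6 and 0.75, and the Rhob ratios with propranolol range from -0.96 to -0.17.

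Propranolol left the 10 genes without a call in either genotype. Rhob averaged 431 CPM ± 122 in KO+P against 654 ± 55.3 in KO cells, and 586 ± 166 (n = 2) in WT+P against 820 ± 40.0 in WT cells. Myh9 averaged 1264 ± 152 CPM in KO+P against 1701 ± 178 in KO cells, while in WT cells it averaged 2213 ± 301 with and 2375 ± 401 without the drug. Neither model called any of the 10 (without the block 0.00674% of tested genes were called in each genotype, with it 0.142% in KO and 0.0809% in WT cells), and neither did DESeq2 without a block (1.11% and 0.795%). At an unadjusted p under 0.05 without the block, 1 member passed in KO cells (Rhob, against 12.6% of all tested genes) and 1 in WT cells (Myl9, against 9.87%).

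The KO+P libraries held 363, 358 and 572 CPM of Rhob and the WT+P libraries 469 and 704 CPM. All 5 were below every undrugged library of their own genotype, and replicate 3 of KO+P and replicate 2 of WT+P lay nearest to those. The log2 fold changes were -0.6 ± 0.25 in KO (adjusted p = 0.359, blocked 0.154) and -0.48 ± 0.28 in WT cells (adjusted p = 0.576, blocked 0.471). Without KO+P replicate 3 Rhob was called lower in KO cells in the blocked model (-0.88, adjusted p = 0.0389), but in that fit 10.7% of all tested genes were called. In WT cells the blocked value went from 0 without WT+P replicate 1 (adjusted p = 1) to -0.95 without WT+P replicate 2 (0.0649), so that the size rests on which of the 2 drug libraries is used. Myh9, at 1353, 1088 and 1350 CPM in KO+P libraries, lay below all KO libraries (-0.43 ± 0.2, adjusted p = 0.398, blocked 0.102). Rhob and Myh9 were the 2 of 10 genes whose KO+P and KO libraries did not overlap (18.7% of all tested genes), and Rhob and Myl9 the 2 of 10 in WT cells (21.2%).

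Myl9 held 61.5 and 85.6 CPM in WT+P and 20.7, 27.8 and 5.52 CPM in KO+P libraries. Both WT+P values were above the highest WT library of 54.6 CPM, and 1 of the 3 KO+P values was below all KO libraries (log2 fold changes of 1.43 ± 0.65 and 0.98 ± 0.61, adjusted p = 0.499 and 0.51). Mylk held 18.1, 23.4 and 19.1 CPM in KO+P and 17.7 and 19.2 CPM in WT+P libraries. The drug groups thus lay between the undrugged WT mean of 15.4 and the KO mean of 24.7 CPM in both genotypes, and the difference between the drug effects, KO minus WT, was -0.55 ± 0.28 (interaction test, adjusted p = 1; 0% of tested genes called and 0.721% at an unadjusted p under 0.05). Rhoa, Rhoc, Rock1, Rock2, Ppp1r12a and Smurf1 had log2 fold changes between -0.06 and 0.26 in KO and between 0.02 and 0.21 in WT cells. Without the library labelled WT replicate 1 none of the 10 genes and 0% of tested genes were called in WT cells with the block, where Myl9 was at 0.77 (adjusted p = 0.769), Rhob at -0.42 (0.774) and the other 8 between -0.13 and 0.24. The Mylk interaction was then -0.51 without and -0.43 with the block (adjusted p = 1 and 0.974).

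Between genotypes under the same drug, Myl9 lay lower in KO cells with both drugs and Myh9 with propranolol. Myl9 averaged 18 CPM ± 11.4 in KO+P against 73.6 ± 17.0 in WT+P cells, and 24.8 ± 10.1 in KO+R against 153 ± 29.1 in WT+R cells. Its libraries did not overlap in either comparison (log2 fold changes of -2.03 ± 0.66 and -2.62 ± 0.66, adjusted p = 0.608 and 0.39, blocked 0.133 and 0.0731). DESeq2 without a block called Myl9 lower in KO+R (adjusted p = 0.0142; 0.519% of tested genes called) and Myh9 lower in KO+P (log2 fold change -0.8, adjusted p = 0.046; 0.411% called). With rapamycin the Myh9 libraries overlapped, at 2394 to 3012 CPM in KO+R and 2922 to 4714 CPM in WT+R (-0.55 ± 0.22, adjusted p = 0.811, blocked 0.18). edgeR called none of the 10 in either comparison, with or without the block (0.0876% and 0.0944% of tested genes called with it, none without it), and 3 members had an unadjusted p under 0.05 without the block in each (6.19% and 5.72% of all tested genes). Members with non-overlapping libraries numbered 5 of 10 with propranolol (16.6% of all tested genes) and 4 of 10 with rapamycin (19.2%), and Rhoa was higher in KO cells in both, at 687 ± 21.3 against 557 ± 56.7 CPM and 702 ± 20.9 against 594 ± 97.3 CPM (adjusted p = 0.785 and 1).

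Myl9 is also a gene of mural cells, the pericytes and smooth muscle cells of the vessel wall, although the cultures had been selected for endothelial cells with puromycin. The 13 mural markers, 10 of which were tested, summed to 91.8 to 941 TPM in WT, 437 to 1600 in WT+P, 1390 to 2680 in WT+R, 63.5 to 235 in KO, 115 to 490 in KO+P and 257 to 378 in KO+R libraries. Most of this sum was Tagln (41.3 to 2070 TPM) and Acta2 (17.7 to 512 TPM), which encode contractile proteins. Cnn1 reached 84.1 TPM, Lmod1 15.5 TPM and Myh11 1.52 TPM, each in WT+R replicate 2. Pdgfrb, Rgs5, Cspg4 and Notch3, which mark pericytes and other mural cells, stayed at or under 2.01 TPM in every library, Des at or under 1.2 TPM, Kcnj8 and Abcc9 at or under 0.156 TPM, and Higd1b was listed at 0 in all. In WT+R vs WT the blocked model called Acta2, Tagln and Lmod1 higher (log2 fold changes of 2.82, 2.5 and 2.55, adjusted p = 0.0176, 0.035 and 0.00469). The other 7 tested mural markers were not called, with log2 fold changes of 1.9 for Cnn1, 1.36 for Myh11, 0.76 for Pdgfrb, 0.4 for Des, -0.03 for Cspg4, -1.09 for Notch3 and -1.83 for Rgs5 (adjusted p of 0.118 or more). Among the endothelial markers the same model called Emcn higher (0.85, adjusted p = 0.0176) and Egfl7 lower (-0.7, 0.0111). The part of mural cells in the Myl9 result was not tested. Fibroblast markers summed to at most 53.9 TPM, with Lum and Dpt listed at 0 in every library.

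**Figure D4:**
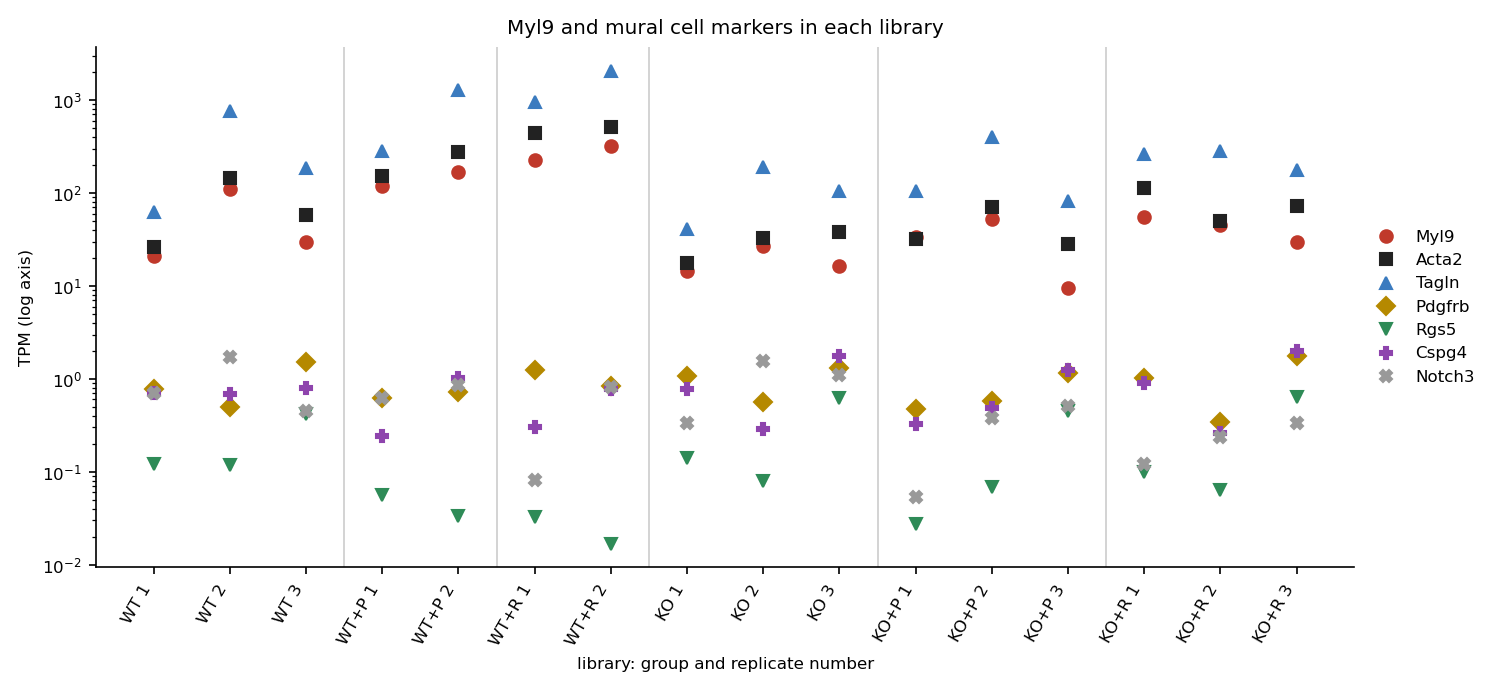
TPM (log axis) of Myl9, of Acta2 and Tagln, and of the mural markers Pdgfrb, Rgs5, Cspg4 and Notch3 in each of the 16 libraries, with grey lines between groups. Myl9, Acta2 and Tagln move together and are higher in both WT+R libraries than in any WT library, while the other 4 markers shown stay at or under 2.01 TPM in every library. Cnn1 and Lmod1, which reached 84.1 and 15.5 TPM in WT+R replicate 2, are not plotted.

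The genes whose pattern was most like that of Myl9 over the 16 libraries, after the mean of each replicate number was subtracted from log2 CPM, were Acta2 (Pearson r = 0.981), Tagln (0.98) and Csrp1 (0.954), out of 12410 genes averaging 1 CPM or more. Those most like Rhob were Csrp2 (0.991), Tspan4 (0.986) and Klhl6 (0.984), and those most like Mylk were Wdr62 (0.911), Zdhhc15 (0.907) and Ogdh (0.903). Among the 10 genes themselves, Rhob and Myh9 were the closest pair (0.9), followed by Myl9 and Ppp1r12a and by Myh9 and Ppp1r12a (0.78 each). Myl9 and Mylk, whose products are the light chain and its kinase, ran opposite (-0.67). These values describe libraries that share groups and replicate numbers, and carry no test.

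The other genes of the pathway were taken from a list of 96 genes, 94 of which were tested. In KO vs WT the unblocked model called none (0.00674% of tested genes called) and the blocked model called Stard8 alone, a RhoGAP, at 57.6 CPM ± 12.5 in KO against 37.2 ± 7.32 in WT cells (log2 fold change 0.62 ± 0.1, adjusted p = 0.0473). Without any 1 of the 6 libraries, the one labelled WT replicate 1 included, the blocked model called none. The median log2 fold change over the 94 genes was -0.06, against -0.01 over all tested genes (unblocked). With propranolol neither model called a gene of the list in either genotype, and the medians were -0.14 in KO and 0.05 in WT cells. In the blocked model 13 of 94 were called in KO cells without KO+P replicate 3 (3 higher and 10 lower) and 12 of 95 in WT cells without WT+P replicate 2 (7 higher and 5 lower), fits in which 10.7% and 8.62% of all tested genes were called.

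With rapamycin more of the list was called than with propranolol, and so were more of all tested genes. Without the block 2 of 94 genes were called in KO cells (Smurf2 higher and Arhgap42 lower; 1.51% of tested genes called) and 6 of 94 in WT cells (5 higher and 1 lower; 1.4%). With it 10 were called in KO cells (6 higher and 4 lower, against 1.94% and 3.04% of all tested genes) and 19 in WT cells (14 higher and 5 lower, against 2.18% and 2.39%). In KO cells the 2 called without the block and the 4 lower with it were near the share of all tested genes. The medians over the list were 0.06 and 0.1 with the block, against -0.02 and -0.01 over all tested genes. Of the called genes, 9 were called in both genotypes, which is 9 of 10 in KO and 9 of 19 in WT cells. Over all tested genes 739 were called in KO and 677 in WT cells with the block. How many of those were called in both was not counted, so the overlap has no background to be set against.

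The genes that rose were led by actin-binding and stress fibre proteins and by Smurf2. Of the 21 genes in the group of formins, stress fibre proteins and MRTF-SRF, 3 rose in KO and 8 in WT cells in the blocked model, and none fell, with medians of 0.19 and 0.47. Several of them, such as Cald1 and Tpm2, are abundant in smooth muscle. The summed mural markers were higher, and the summed endothelial markers lower, in both WT+R libraries than in any WT library. The same held for the sums of all KO+R against all KO libraries. The median log2 fold change there (unblocked) was only -0.03 over the endothelial and 0.25 over the tested mural markers. The part of other cells in these counts was not tested. Cnn2, an actin-binding calponin, averaged 363 CPM ± 133 in KO+R against 204 ± 51.2 in KO cells (log2 fold change 0.8 ± 0.1, blocked adjusted p = 0.00118), and 645 ± 166 in WT+R against 306 ± 86.9 in WT cells (0.88 ± 0.11, 0.00166). Cald1, which encodes the actin-binding caldesmon, averaged 1030 ± 97.8 CPM in WT+R against 419 ± 87.7 in WT cells (1.28 ± 0.14, adjusted p = 0.000741 blocked and 0.0172 unblocked). Smurf2, the closest relative of Smurf1, averaged 180 ± 19.8 against 107 ± 5.58 CPM in KO and 198 ± 31.5 against 117 ± 7.66 CPM in WT cells, and was called with and without the block in both (log2 fold change 0.75 and 0.77 blocked, adjusted p = 0.00189 and 0.00379); 11.0% of its exonic bases overlap other genes. Dapk3, a kinase that phosphorylates the myosin light chain, averaged 216 ± 72.3 against 121 ± 23.9 CPM in KO cells (0.8 ± 0.13, blocked adjusted p = 0.00442), with 17.9% of its exonic bases in overlap.

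The genes that fell in the blocked model were RhoGAPs and the receptors Lpar1 and F2r in both genotypes, and in WT cells also Net1, an exchange factor that activates RhoA. Another receptor, Lpar4, rose in both (1.25 and 1.46, adjusted p = 0.043 and 0.039). Arhgap42, a RhoGAP, averaged 4.76 ± 0.666 against 8.88 ± 1.59 CPM in KO cells (log2 fold change -0.9 ± 0.18, blocked adjusted p = 0.0135) and 4.13 ± 0.739 against 9.13 ± 1.06 CPM in WT cells (-1.12 ± 0.21, 0.0119). Lpar1, a receptor for lysophosphatidic acid, fell to 0.194 from 1.19 CPM in KO cells (-2.61 ± 0.58, 0.0212) and to 0.527 from 3.9 CPM in WT cells (-2.91 ± 0.6, 0.0165), all low levels. Racgap1, a RhoGAP of cell division, fell in KO cells (-1.33 ± 0.32, 0.0306), and the RhoGAP Arhgap29 in WT cells (-0.77 ± 0.14, 0.00877). Without each library in turn, 3 to 7 genes of the list were called in KO cells (2.08 to 3.05% of all tested genes) and 3 to 16 in WT cells (0.654 to 4.38%), with 7 (2.73%) without the library labelled WT replicate 1. Cnn2, Dapk3 and Smurf2 were called in all 6 such fits in KO cells, and Cald1, Cnn2 and Smurf2 in all 5 in WT cells. Under rapamycin Cald1 was lower in KO+R than in WT+R cells (-0.95 ± 0.14, blocked adjusted p = 0.0284), and under propranolol Cnn2 was lower in KO+P than in WT+P cells (-0.85 ± 0.11, 0.0187), each the only gene of the list called there. Neither was called without the block (adjusted p = 0.373 and 0.606), and in the blocked model the Cald1 call was lost without any 1 of the 5 libraries and the Cnn2 call without any but KO+P replicate 3.

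**Figure D5:**
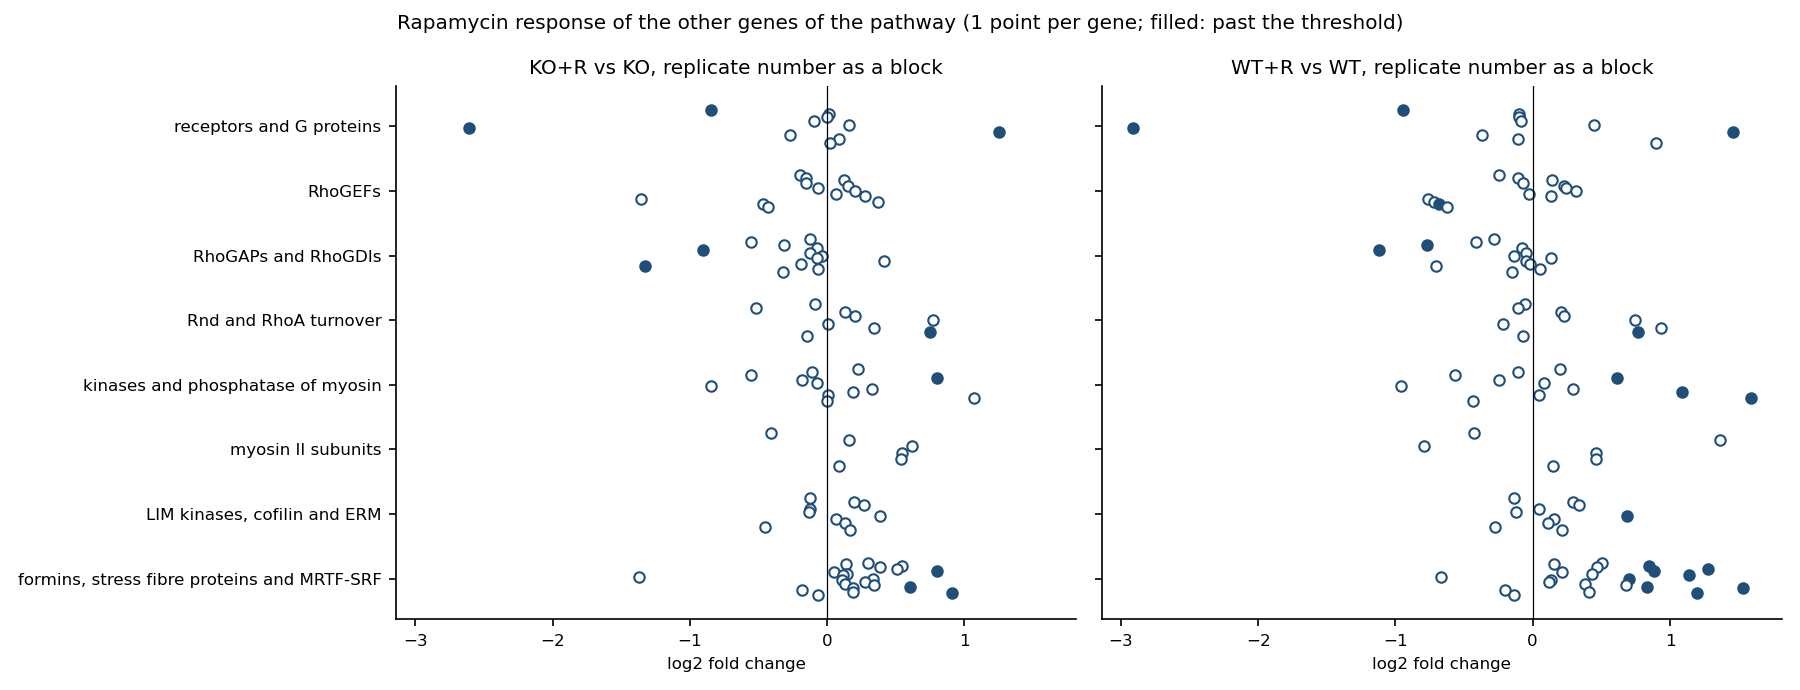
log2 fold change (horizontal axis) with rapamycin of the 94 tested genes of the pathway list, 1 point per gene, in 8 groups by role, for KO cells (left) and WT cells (right), from the blocked model, with filled points for called genes. The stress fibre group holds 3 filled points in KO and 8 in WT cells, all to the right of 0, and both RhoGAP points that are filled in each panel lie to the left.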

How the data were processed

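RNA-seq was performed by the authors on unstranded poly(A) libraries of 16 samples. The authors deposited, per transcript and library, expected counts (estimated reads), TPM and effective lengths in Salmon format. The submitters' processing notes name Salmon 1.5.2 and GRCm39, the study's methods describe STAR and HTSeq instead, and the transcript index is not given in the sources used here. The deposited expected counts were summed per gene through GENCODE vM39 (139544 of 140789 transcripts matched, and the rest held 0.39 to 0.57% of counts) and rounded to whole numbers, as a count model needs. The deposited TPM were summed for levels between genes. The effective length was used as an offset in an alternative. The upstream windows were read from GRCm39 before vM39 transcript starts, and transcript versions can differ from the indexed ones.

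Genes passing filterByExpr (14838 of 27228 with any count) were tested in edgeR 4.0.16 (quasi-likelihood, TMM factors 0.934 to 1.041, R 4.3.3) in 1 model of the 6 groups with 10 residual degrees of freedom, and p-values were adjusted over all tested genes. Biological variation between replicates, as a coefficient, came to 32.3%, or 19% in the model that adds the replicate number as a block (8 residual degrees of freedom). The numbers pair the samples by their values alone: deviations from group means correlated between same-numbered libraries in every compared pair, by 0.19 to 0.62 in KO vs WT and 0.31 or more in the others. Over all groups, 36 same-number pairs ranged from 0.03 to 0.69 (median 0.52). The 70 different-number pairs ranged from -0.69 to 0.4 (median -0.23). The labels do not state separate cultures beyond the replicate number, so p-values measure the spread between these samples. On simulated counts for KO vs WT over 14838 genes, 200 of them changed, the model recovered 87% of genes changed 4-fold and 55% of those changed 2-fold. It also called 6 unchanged genes, and the blocked model called 2. DESeq2 without the block recovered 93% and 75%, and called 43 unchanged genes. The simulation used the means and spreads that edgeR fitted without the block, and no effect of the replicate number. It therefore does not show how either tool or the block does on libraries that share such an effect. Alternatives were the block, DESeq2 1.42.0 with and without it, RLE factors, no filter, the length offset, the 2 compared groups alone (for interactions, their 4 groups), and leaving out each library; leaving out each library in the blocked model was added after seeing the data.

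The 10 genes, the pathway list and the marker lists were chosen with earlier results of these data known. All 10 were given in each comparison. From the pathway list, up to 3 called genes higher and 3 lower with the smallest blocked p were named per comparison, and counts gave the rest. Net1, Tpm2, F2r and Lpar4 were named after their values were seen. The genes most like a member were the 3 with the highest correlation over libraries, after subtracting the mean of each replicate number.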

Additional observations from a re-analysis of the deposited data

Results flagged for a closer look

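Mylk, the myosin light chain kinase gene, was picked out because its propranolol libraries lay on opposite sides of the undrugged libraries in KO and WT cells. All 3 KO+P libraries (18.1, 23.4 and 19.1 CPM) were below the KO library of the same number (24.2, 28.4 and 21.6 CPM), and both WT+P libraries (17.7 and 19.2 CPM) were above theirs (14.8 and 18.7 CPM). The difference between the 2 drug effects, KO minus WT, was -0.55 ± 0.28 on the log2 scale (edgeR, unadjusted p = 0.0715, adjusted p = 1) without the replicate block and -0.46 ± 0.16 (unadjusted p = 0.0124, adjusted p = 1) with it. It did not pass the correction over all tested genes. Since Mylk was picked for this pattern, the unadjusted p cannot be read as a test of it. The WT side holds 2 pairs, with log2 ratios of 0.26 for replicate 1 and 0.04 for replicate 2. The larger is with the library labelled WT replicate 1.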

How the results depend on the processing

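Without the block edgeR called 0 of the 10 genes in every comparison. With the replicate number as a block, by the pairing seen in the values, it called 1 in KO vs WT (Mylk, 1 also without WT replicate 1), 1 in KO+R vs KO and 2 in WT+R vs WT, and none in the others, while the share of tested genes called went from 0.00674 to 0.182% (KO vs WT), 0.00674 to 0.142% (KO+P vs KO), 1.51 to 4.98% (KO+R vs KO), 0.00674 to 0.0809% (WT+P vs WT), 1.4 to 4.56% (WT+R vs WT), 0 to 0.0876% (KO+P vs WT+P) and 0 to 0.0944% (KO+R vs WT+R). DESeq2 called 2 in KO+R vs KO, 3 in WT+R vs WT, 1 in KO+P vs WT+P and 1 in KO+R vs WT+R, and with the block 3, 3, 2 and 1, plus 2 in KO vs WT (Mylk and Myl9), in fits that called 7.6, 6.6, 1.75, 2.03 and 2.68% of all tested genes. In WT+R vs WT, 1 (Myl9) was called with no filter on low counts, and 0 to 1 when each library was left out without the block, 1 (Myl9, adjusted p below the threshold) without WT replicate 2. RLE factors, the length offset and the compared groups alone called none. The cause of these differences was not tested. Of 1840 alternative values of single genes, 35 passed the threshold and 1805 stayed uncalled. With 0 of the 10 genes called without the block, no call could be lost, so these counts do not measure how stable a call is. Among uncalled values 106 changed sign, and none of these was larger than 0.45 on the log2 scale without the block. The limits are 2 or 3 libraries per group, a WT library with Pdcd10 at the KO level, and pairing known only from the values.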
